A study of Mus musculus with 6 samples.

Results

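Prox1, Pitx3, Foxe3, Hsf4, Mab21l1, Mab21l2 and Bcor act between lens induction and fibre cell differentiation, and their transcripts were measured in the ocular surface ectoderm of CBP/p300 mutant mouse embryos. The members were all probes whose gene symbol, or an older name of the same Entrez gene, was 1 of these 7 names. They comprised 11 of 45281 probes on the array and 7 of 19057 named genes. DCKO embryos carried CBP fl/fl, p300 fl/fl and Pax6-Cre, which inactivates both acetyltransferase genes (CBP-/-, p300-/-), and 3 arrays were made from them. WT embryos gave 3 arrays and, by the article's methods, carried the same floxed alleles without Cre. All were E10.5 embryos of a mixed FVB; 129 background, and the tissue was cut by laser microdissection. The Cre transgene is driven by an ectodermal enhancer and the P0 promoter of Pax6, and so acts in the lens and corneal precursors of the head ectoderm. The labels name the DCKO tissue surface ectoderm and the WT tissue lens placode, so genotype and the kind of tissue cut cannot be told apart. They also state that the RNA of 3 embryos was pooled within a genotype before amplification in triplicate, whereas the article speaks of biological replicates. The p-values may therefore measure only technical spread.

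Lens induction turns head ectoderm into a thickened placode, which folds inward to a pit and then a vesicle whose posterior cells become fibres. Pax6, Sox2 and Six3 act early in this path. Pitx3 and Foxe3 follow in the placode and vesicle, and Prox1, Maf and Hsf4 act as fibres form and switch on crystallin genes. CBP and p300 are co-activators that acetylate histones and are recruited by many DNA-binding factors. Not all 7 genes encode DNA-binding proteins, since Bcor is a corepressor and the Mab21-like proteins have a nucleotidyltransferase fold.

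Prox1 (Entrez gene 19130) is on chromosome 1 and Pitx3 (Entrez gene 18742) on chromosome 19. Their promoter sequences are shown because these genes had the largest decreases among the members. Each run is the 250 bases before an annotated start, 5′ to 3′ on the minus strand of GRCm38.p6, from RefSeq. Capitals mark a GC box (GGGCGG or its reverse complement CCGCCC) or a TATA box (TATAAA or its reverse complement TTTATA). The first Prox1 start has chr1:190170828-190171077, the other Prox1 start chr1:190169516-190169765 and Pitx3 chr19:46148326-46148575.
Prox1 first start: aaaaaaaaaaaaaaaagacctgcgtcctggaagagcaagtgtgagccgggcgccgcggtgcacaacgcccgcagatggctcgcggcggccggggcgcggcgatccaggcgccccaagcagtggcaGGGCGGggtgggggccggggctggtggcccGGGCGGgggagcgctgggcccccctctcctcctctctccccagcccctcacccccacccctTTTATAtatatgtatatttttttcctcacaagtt
Prox1 other start: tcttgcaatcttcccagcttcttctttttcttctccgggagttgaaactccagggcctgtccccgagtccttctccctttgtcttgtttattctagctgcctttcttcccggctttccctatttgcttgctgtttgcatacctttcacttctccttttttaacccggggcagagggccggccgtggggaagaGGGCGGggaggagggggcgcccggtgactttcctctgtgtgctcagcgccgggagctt
Pitx3: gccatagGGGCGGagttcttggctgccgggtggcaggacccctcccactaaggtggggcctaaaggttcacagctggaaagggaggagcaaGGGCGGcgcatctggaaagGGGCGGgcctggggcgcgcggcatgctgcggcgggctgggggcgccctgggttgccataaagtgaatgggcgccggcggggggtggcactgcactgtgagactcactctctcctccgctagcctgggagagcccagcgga

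The first Prox1 window held 2 GC boxes, whose first bases lay 125 and 95 bases before the start, and 1 TATA box 34 bases before it. That TATA box is a match to TTTATA, so TATAAA lies on the opposite strand. The other Prox1 window held 1 GC box, 58 bases before its start. The Pitx3 window held 3 GC boxes, at 243, 159 and 140 bases before the start. A GC box, the kind of site bound by Sp1, occurred in 32.7% of the 32851 windows of this length and a TATA box in 12.4%. The cyclic AMP response element, the site of the CBP partner Creb1, was searched as TGACGTCA on both strands. These letters were in no member window and in 1.55% of all windows. Its TGACG core, which overlaps it, was also in no member window and in 17.8% of all windows. Windows were given for 5 of the 7 genes, 7 windows in all. Foxe3 and Bcor held none of the motifs, and Mab21l2 held 1 TATA box, 192 bases before the start. Hsf4 and Mab21l1 had no entry. A match describes the letters only.

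The arrays resembled each other by genotype. Across the 19552 probes tested, Pearson correlations were 0.878 to 0.883 between DCKO arrays, 0.930 to 0.934 between WT arrays and 0.837 to 0.857 between genotypes. A probe was taken as detected at a detection p under 0.05. DCKO arrays detected 18724 to 19551 probes and WT arrays 18081 to 19769, and median intensities before normalization were 193 to 201 in DCKO and 198 to 235 in WT. Of 4 Ep300 probes, 1 had a log2 level of 4.95 ± 0.29 in DCKO and 6.95 ± 0.33 in WT (SD, n = 3 each), was undetected on all DCKO arrays and passed the limma test (adjusted p = 0.0159). The other Ep300 probes had adjusted p of 0.0632, 0.862 and 0.984, and the 3 Crebbp probes 0.233 to 0.875. Whether these probes lie in the deleted exons is not given in the sources used here, so they are a weak check of the genotype. All 7 lens fibre markers tested were called lower in DCKO, where 4 were undetected on every array, while all 7 were detected in WT. Summed levels of this marker list were 263 to 376 in DCKO and 12211 to 13789 in WT, on the linear scale. Of 9 surface epithelium markers 4 were called higher in DCKO. The sums of this list overlapped, at 8333 to 9577 in DCKO and 7581 to 8733 in WT. Of 10123 genes 2.78% were called lower and 2.1% higher by their brightest tested probe.

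Prox1 and Pitx3 fell in DCKO, Mab21l1 fell by 1 of its 2 probes, and the Bcor and Mab21l2 probes did not pass the test. Foxe3 was near background and Hsf4 at background. Levels below are log2 normalized intensities, to which 16 was added before the logarithm was taken. The lowest detected level was 5.36 to 5.53 over the 6 arrays, so values near 5 are background. A probe entered the limma fit if it was detected on at least 3 arrays, and a call needed an adjusted p under 0.05 (Benjamini-Hochberg, over all 19552 probes tested). Probes detected on the arrays of 1 genotype alone entered only through the genotype where they were high. Of the 11 member probes 9 were tested, for 5 genes, while those of Foxe3 and Hsf4 were not. In all, 4 member probes of 3 genes were called lower in DCKO, 0 were called higher and 5 did not pass. Over all tested probes 2.81% were called lower and 1.77% higher. At an unadjusted p under 0.05, 5 member probes were lower and 1 was higher. Of the 19552 tested probes 4015 were under that p, in either direction. The 2 groups of arrays did not overlap for 7 member probes, 6 lower and 1 higher, where 14.4% and 13% of all tested probes did so. The 1 higher probe in these counts was that of Mab21l2, which was detected on DCKO arrays alone. The median log2 fold change was -1.32 for the 9 member probes and 0.01 for all tested probes. Some of these genes were singled out by the study from these same samples, so the counts are not independent evidence of a direction.

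**Figure D1:**
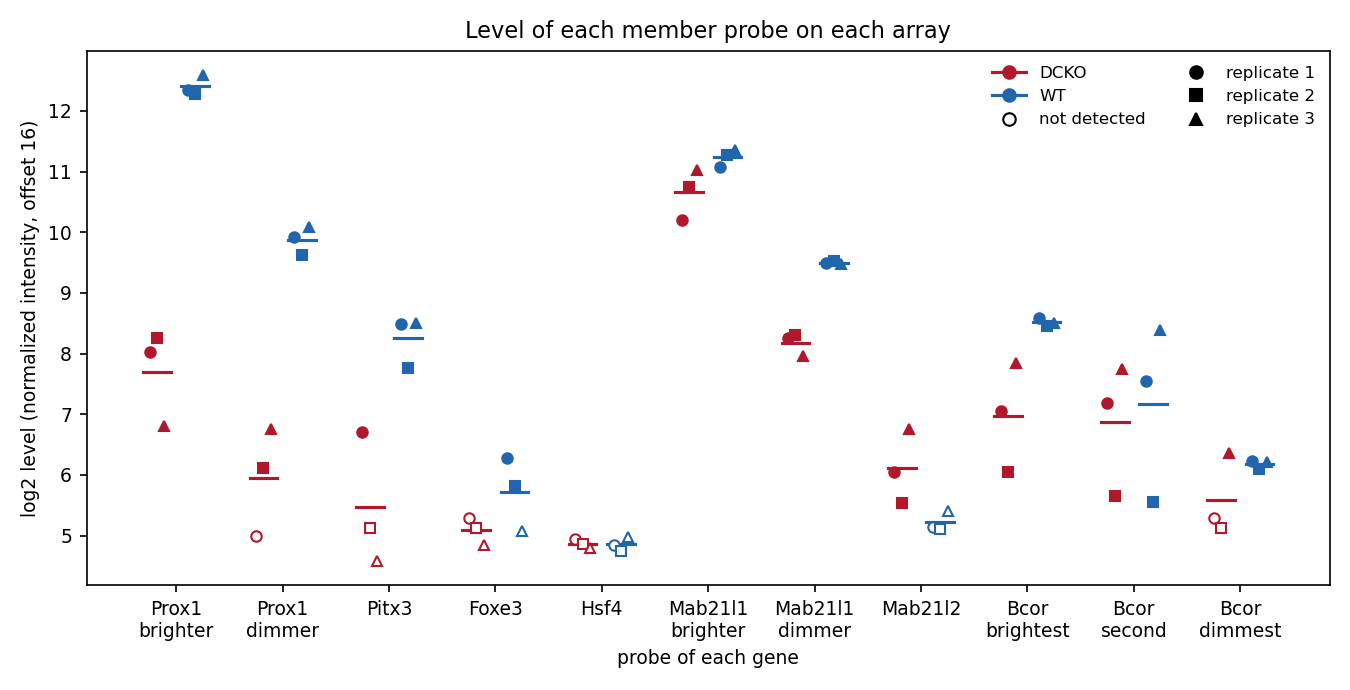
Log2 level of each of the 11 member probes on each array, DCKO left of WT, with replicates 1 to 3 as circle, square and triangle and the group mean as a line. Open symbols were not detected; both Prox1 probes, Pitx3 and the dimmer Mab21l1 probe were called lower in DCKO, and Hsf4 stayed at background on all 6 arrays.

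Prox1, a homeobox factor required for fibre cell elongation and for crystallin expression, had the largest decrease of the 7 genes. Its brighter probe had log2 levels of 8.02, 8.26 and 6.81 on DCKO arrays 1, 2 and 3, against 12.34, 12.28 and 12.59 on WT arrays 1, 2 and 3. The groups lay far apart, and every array detected the probe, so Prox1 RNA was low but still measured in DCKO. The log2 fold change, here and below with its standard error (SE), was -4.71 ± 0.41 (95% interval -5.68 to -3.73, limma adjusted p = 0.00351), which is a 26.1-fold lower mean in DCKO. The dimmer probe had 4.99, 6.11 and 6.76 on the DCKO arrays, against 9.92, 9.63 and 10.08 on the WT arrays. It also separated the genotypes, by a log2 fold change of -3.92 ± 0.46 (SE, limma adjusted p = 0.00848), and was undetected on DCKO array 1. In bulk tissue, fewer Prox1-expressing cells and less Prox1 RNA per cell cannot be told apart.

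The 2 Prox1 probes placed DCKO array 3 differently. That array was the lowest for the brighter probe and the highest for the dimmer one, while array 1 was below array 2 for both. Brighter minus dimmer came to 3.03, 2.15 and 0.05 on the DCKO arrays, against 2.42, 2.64 and 2.51 on the WT arrays. The WT arrays were nearly constant in this difference and the DCKO arrays were not. The mean of this difference was 0.78 lower in DCKO (exact permutation p = 0.7, 2-sided; 0.1 is the smallest that 3 arrays against 3 allow).

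Prox1 is also expressed outside the lens, above all in lymphatic endothelium. None of 4 tested endothelial and lymphatic markers was called by limma, and 1 had an unadjusted p under 0.05. That one was Tek, an angiopoietin receptor of endothelium, with a log2 level of 4.63 ± 0.05 in DCKO and 6.91 ± 1.06 in WT (SD, n = 3 each). Tek was undetected on all DCKO arrays and detected on all WT arrays, the groups did not overlap, and the log2 fold change of -2.29 ± 0.51 did not pass (SE, limma adjusted p = 0.0611). Emcn, an endothelial sialomucin, had a log2 fold change of 0.20 (limma adjusted p = 0.79), and Lyve1, a defining lymphatic marker, was undetected on all 6 arrays. The summed level of that list was 140 to 177 in DCKO and 193 to 456 in WT. Of the macrophage markers 3 of 6 tested were called lower in DCKO, where 2.78% of 10123 genes were called lower and 2.1% higher. The sum of the macrophage list was 139 to 263 in DCKO and 1893 to 2630 in WT. Aif1 and Mpeg1 were undetected on all DCKO arrays, and Fcer1g and C1qa on all 6 arrays. Of 3 tested erythroid markers Hba-a1 was called lower, and their sum was 1567 to 2308 in DCKO and 2977 to 3692 in WT. The part of these cells in the results was not tested.

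Pitx3 (Entrez gene 18742), a homeobox factor whose loss in the aphakia mouse stops lens development, also fell. Its single probe had log2 levels of 6.70, 5.13 and 4.58 on DCKO arrays 1, 2 and 3, against 8.49, 7.76 and 8.50 on WT arrays 1, 2 and 3. All DCKO arrays were below all WT arrays, and DCKO array 1, the only one of the DCKO arrays to detect Pitx3, stood well above the other two. The log2 fold change was -2.78 ± 0.56 (SE, 95% interval -4.13 to -1.43, limma adjusted p = 0.0466). With the undetected arrays set to the lowest detected level, the observed mean was at least 5.21-fold lower in DCKO, a bound that leaves out its uncertainty. That fold depends on the background correction, and the log2 fold change was -1.20 without it (adjusted p = 0.0295). The call was close to the threshold: without DCKO replicate 1 the adjusted p was 0.0179, and without any other single array it was 0.0953 to 0.156. Pitx3 overlaps Elovl3, a fatty acid elongase gene, whose probe had a log2 fold change of -3.28 ± 0.63 (SE, limma adjusted p = 0.0417). Elovl3 averaged 6.71 in DCKO and 9.99 in WT, and whether either probe also reads the neighbouring transcript was not tested.

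Foxe3 (Entrez gene 30923), a forkhead factor of the lens epithelium that is mutated in the dysgenetic lens mouse, was barely above background. Its probe had log2 levels of 5.29, 5.12 and 4.85 on DCKO arrays 1, 2 and 3, against 6.28, 5.82 and 5.07 on WT arrays 1, 2 and 3. It was detected on no DCKO array and on WT arrays 1 and 2, and the groups overlapped because WT array 3 was at the level of the DCKO arrays. Raw bead intensities did not overlap, at 184 to 203 in DCKO and 224 to 251 in WT, but WT array 3 had the highest median intensity of all 6 arrays. The probe was left out of the test by the filter. In a fit of all 45281 probes its log2 fold change was -0.64 ± 0.33 (SE, limma adjusted p = 0.531). A Foxe3 difference was not detectable with this probe on 6 arrays.

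Hsf4 (Entrez gene 26386), a heat shock factor needed for late fibre maturation and for gamma-crystallin expression, was undetected on all 6 arrays. Its log2 levels were 4.94, 4.86 and 4.80 on the DCKO arrays, against 4.84, 4.75 and 4.97 on the WT arrays. The values of the genotypes interleaved, and no fold is given since both were at background.

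Mab21l1 (Entrez gene 17116), which is required for lens placode invagination in the mouse, gave 2 probes that disagreed on the call. The brighter probe had log2 levels of 10.20, 10.75 and 11.03 on DCKO arrays 1, 2 and 3, against 11.08, 11.28 and 11.35 on WT arrays 1, 2 and 3. The highest DCKO array nearly reached the lowest WT array, and the log2 fold change of -0.58 ± 0.28 did not pass (SE, 95% interval -1.25 to 0.09, limma adjusted p = 0.308). The dimmer probe had 8.25, 8.30 and 7.96 on the DCKO arrays, against 9.49, 9.53 and 9.47 on the WT arrays. Here each group was tight and the gap between them wide. This probe was called, with a log2 fold change of -1.32 ± 0.21 (SE, 95% interval -1.84 to -0.81, limma adjusted p = 0.0252), a 2.51-fold lower mean in DCKO. The call was lost whichever single array was left out, at adjusted p of 0.0505 to 0.103.

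Brighter minus dimmer for Mab21l1 was 1.94, 2.45 and 3.07 on the DCKO arrays, against 1.59, 1.75 and 1.89 on the WT arrays. All DCKO differences exceeded all WT differences, by 0.74 on average. The exact permutation p was 0.1, the smallest 3 arrays against 3 can give, and 0.25 after Benjamini-Hochberg adjustment over the 5 pairs of same-gene probes compared. Both probes were lower in DCKO in mean, so they differ in size and not in sign. Mab21l1 lies within Nbea, a large neuronal scaffold gene, whose only tested probe had a log2 fold change of -0.12 ± 0.43 (SE, limma adjusted p = 0.915).

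Mab21l2 (Entrez gene 23937), the paralog of Mab21l1 that is needed for eye and ventral body wall development, was the only tested member with a higher mean in DCKO. Its probe had log2 levels of 6.04, 5.54 and 6.75 on DCKO arrays 1, 2 and 3, against 5.14, 5.11 and 5.40 on WT arrays 1, 2 and 3. It was detected on all DCKO arrays and on no WT array, so it entered the test only through the genotype where it was high. The groups did not overlap. The log2 fold change of 0.89 ± 0.34 did not pass (SE, 95% interval 0.07 to 1.71, limma unadjusted p = 0.0372, adjusted p = 0.207). With WT at the lowest detected level, the observed means differed by at least 1.59-fold, a bound that leaves out their uncertainty. That fold depends on the background correction, and the log2 fold change was 0.26 without it (limma adjusted p = 0.323). The difference between the Mab21l1 and Mab21l2 responses was not tested. Mab21l2 lies within Lrba, of whose 2 tested probes neither passed: their log2 fold changes were 0.04 and 1.23 (limma adjusted p = 0.98 and 0.277). The latter probe averaged 6.41 in DCKO and 5.18 in WT and, like Mab21l2, was detected on all DCKO arrays and on no WT array. Whether a probe of either gene also reads the transcript of the other was not tested. Optic vesicle and periocular markers were sparse on these arrays. Over all 10123 genes 2.78% were called lower and 2.1% higher by their brightest tested probe. Of the optic vesicle list 2 of 6 genes were tested and 0 were called, with 1 at an unadjusted p under 0.05 and sums of 204 to 235 in DCKO and 268 to 396 in WT. Mitf, a factor of the pigmented epithelium, was the one below that p, at 7.06 ± 0.30 in DCKO and 8.02 ± 0.38 in WT (SD, n = 3 each), with no overlap (limma adjusted p = 0.128). Rax was at 5.77 ± 0.33 in DCKO and 5.25 ± 0.23 in WT (SD, n = 3 each), and Six6, Vax2 and Tbx5 were undetected on all 6 arrays. Of the periocular mesenchyme list 2 genes were tested and 1, Prrx1, was called higher by its brightest probe but not by the other 2 tested, and Foxc1 was not called (log2 fold change 1.47, limma adjusted p = 0.157), with sums of 385 to 654 in DCKO and 173 to 266 in WT. Of the neuronal list only Isl1 was tested, and it was called higher, with sums of 255 to 346 in DCKO and 84.9 to 103 in WT. The part of such cells in the Mab21l2 values was not tested.

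Bcor (Entrez gene 71458), an X-linked corepressor of Bcl6 whose human counterpart is mutated in oculofaciocardiodental syndrome, was measured by 3 probes, and none passed. The brightest probe had log2 levels of 7.05, 6.04 and 7.84 on DCKO arrays 1, 2 and 3, against 8.59, 8.46 and 8.51 on WT arrays 1, 2 and 3. The groups did not overlap, but the DCKO arrays were spread over a far wider range than the WT arrays. The log2 fold change was -1.54 ± 0.45 (SE, 95% interval -2.62 to -0.46, limma unadjusted p = 0.0123, adjusted p = 0.117). The dimmest probe had 5.29, 5.13 and 6.36 on the DCKO arrays, against 6.23, 6.09 and 6.22 on the WT arrays. Only DCKO array 3 detected it among the DCKO arrays, at a level above all WT arrays, and the log2 fold change of -0.58 ± 0.36 did not pass (SE, limma adjusted p = 0.427).

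The remaining Bcor probe, annotated to another Bcor transcript record, varied as much within a genotype as between genotypes. Its log2 levels were 7.19, 5.66 and 7.74 on the DCKO arrays, against 7.54, 5.55 and 8.39 on the WT arrays. Replicate 2 was the lowest of each genotype, and the ranges overlapped almost fully. The log2 fold change was -0.29 ± 0.84 (SE, 95% interval -2.30 to 1.71, limma adjusted p = 0.888), so this probe sets little limit on a change in either direction. It turned to 0.31 without DCKO replicate 2 and to 0.32 without WT replicate 3. DCKO array 2 was the lowest DCKO array for all 3 Bcor probes. Brightest minus dimmest was 1.76, 0.91 and 1.48 in DCKO, against 2.36, 2.37 and 2.29 in WT (exact permutation p = 0.1, the smallest possible, 0.25 adjusted over the 5 pairs). The dimmest probe was at background on DCKO arrays 1 and 2, so it could not fall as far there as the brightest. How far this shaped the difference was not tested.

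**Figure D2:**
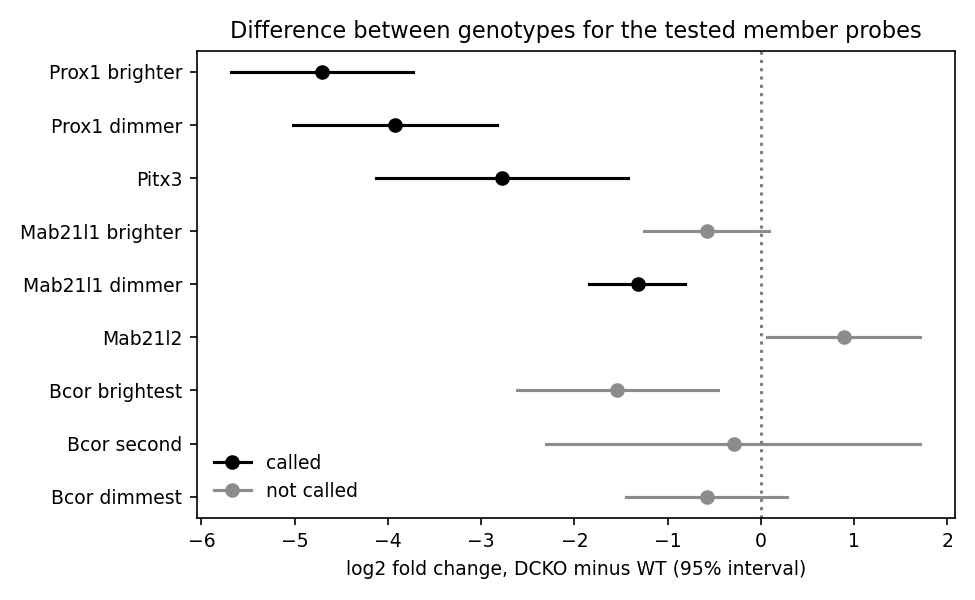
Log2 fold change (DCKO minus WT) of the 9 tested member probes, with 95% intervals from limma. Black probes were called at an adjusted p under 0.05 and grey probes were not; the intervals of the brighter Mab21l1 probe and of 2 Bcor probes cross 0.

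Bead readings before normalization give the error of a single array. Each probe was read on 21 to 53 beads per array, and the standard error of the bead mean was 1.81% to 4.99% of the intensity. The SD over the 3 arrays exceeded the mean bead standard error in 20 of 22 pairs of member probe and genotype. The exceptions were Hsf4 in DCKO and the dimmer Mab21l1 probe in WT. For the Bcor probe of the other transcript record, WT intensities ranged over 213 to 497, with a mean bead standard error of 11.2. For the brighter Prox1 probe they ranged over 298 to 476 in DCKO (mean bead standard error 13.6) and 4893 to 6150 in WT (119). Differences in brightness between whole arrays also enter this SD.

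**Figure D3:**
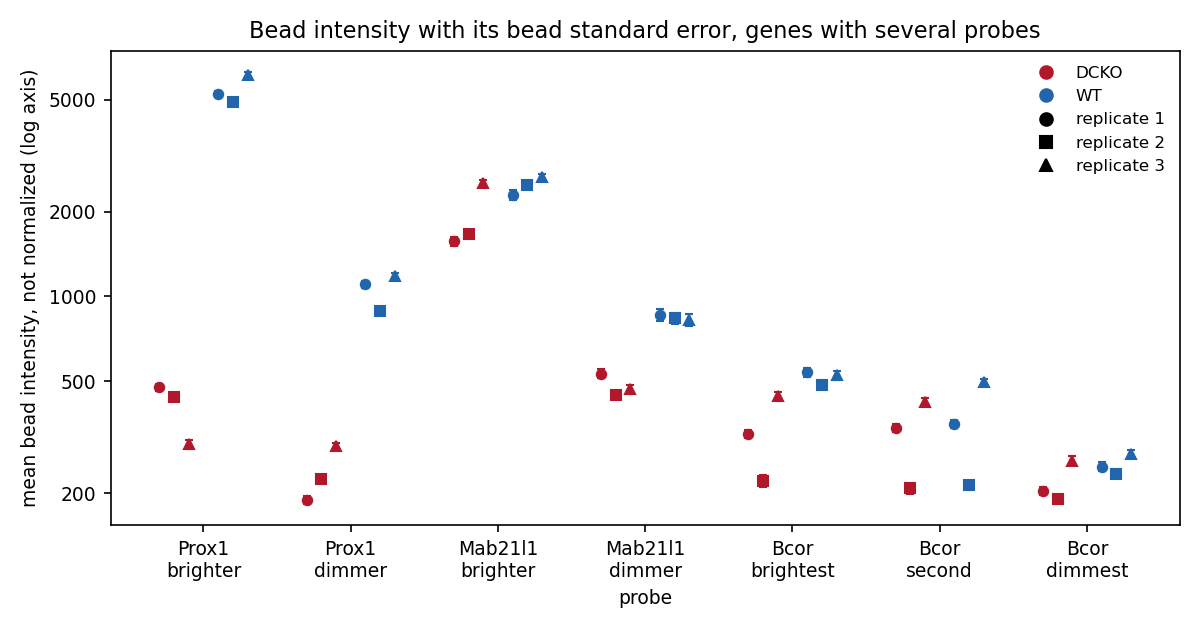
Mean bead intensity before normalization (log axis) of the Prox1, Mab21l1 and Bcor probes on each array, DCKO left of WT, with the bead standard error as bars. Bars are mostly smaller than the symbols, while intensities of the Bcor probe of the other transcript record ranged over 208 to 423 in DCKO and 213 to 497 in WT.

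The 4 calls differed in how they held under 15 other settings of the analysis, of which 6 left out 1 array each. The brighter Prox1 probe was called in all 15, with adjusted p of 0.000228 to 0.0416. The dimmer Prox1 probe was called in 14 and missed the threshold without WT replicate 3 (adjusted p = 0.0501). Pitx3 was called in 5 of 15 and the dimmer Mab21l1 probe in 7 of 15, and their fold changes stayed negative in all 15. Without background correction all 4 stayed called, but with smaller log2 fold changes, of -3.83 and -2.23 for the Prox1 probes, -1.20 for Pitx3 and -0.95 for the dimmer Mab21l1 probe. When a WT array was left out and the detection filter and normalization were then redone on the other 5, neither Prox1 probe was called, at adjusted p of 0.0503 to 0.0799. Prox1 fold changes stayed at -3.85 or lower in those fits.

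**Figure D4:**
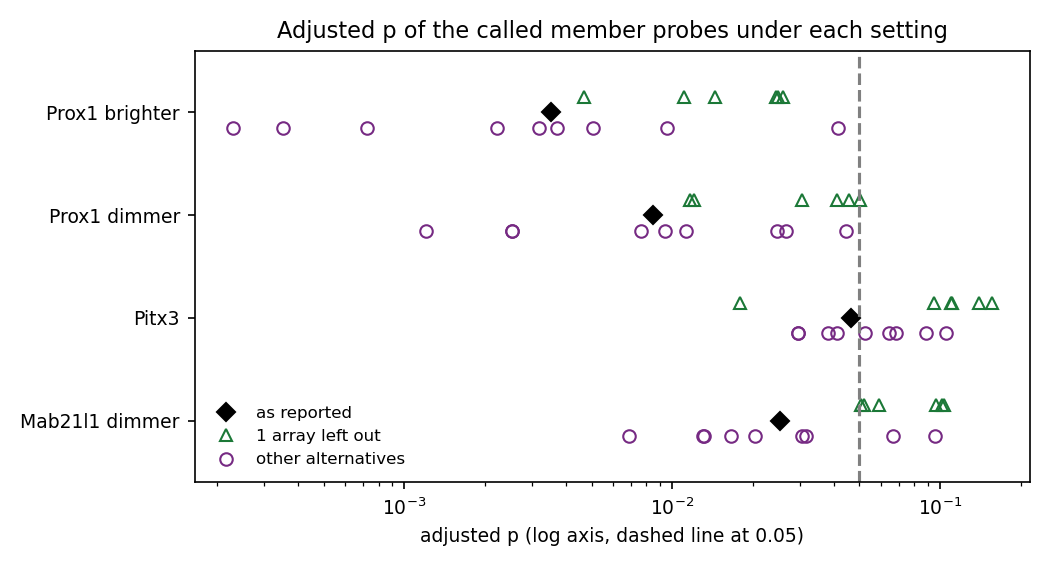
Adjusted p (log axis) of the 4 called member probes as reported (black diamond), with 1 array left out (green triangles) and under the other settings (purple circles), with a dashed line at 0.05. All points of the brighter Prox1 probe lie below 0.05, whereas all 6 triangles of the dimmer Mab21l1 probe lie above it.

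Among genes that depend on Prox1, Foxe3 or Hsf4 in the mouse lens, several crystallins fell. Of 18 genes 17 had a probe and 10 were tested, of which 7 were called lower, 0 higher and 3 did not pass, where 2.78% of 10123 genes were called lower by their brightest tested probe and 2.1% higher. The median log2 fold change was -3.21, and the summed level was 3343 to 4239 in DCKO and 12736 to 13627 in WT. Cryge, a gamma-crystallin, had a log2 level of 4.94 ± 0.20 in DCKO and 10.67 ± 0.05 in WT (SD, n = 3 each), at least 37.8-fold lower in DCKO (limma adjusted p = 0.000307). Crygd, another gamma-crystallin, was at least 22.1-fold lower and Cryaa, the lens chaperone alphaA-crystallin, at least 11.7-fold lower, and all 3 were undetected on every DCKO array. These bounds compare observed means and leave out their uncertainty. The dimmer of 2 tested Crygd probes did not pass. Cryab, the small heat shock protein alphaB-crystallin, was detected on every array and was 13-fold lower in DCKO. Pdgfra, Vim and Crygs, named after their values were seen, were also called lower. Cryge, Crygd, Cryaa and Crygs were detected on WT arrays alone, so they entered the test only through the genotype where they were high. Cryaa, Cryab, Crygd and Cryge are also among the lens fibre markers above, so the counts of these lists are not independent.

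The cell cycle inhibitors of this list were not called. Cdkn1c (p57), which Prox1 loss lowers in fibre cells, had log2 levels of 11.21 ± 0.25 in DCKO and 11.50 ± 0.13 in WT (SD, n = 3 each) and a log2 fold change of -0.29 ± 0.23 (SE, limma adjusted p = 0.547). Cdkn1b (p27) was at 9.28 ± 0.03 in DCKO and 8.99 ± 0.07 in WT (SD, n = 3 each), with a log2 fold change of 0.29 ± 0.20 (SE, limma adjusted p = 0.483). Crygb, the remaining tested gene, had a log2 fold change of -2.22 with a standard error of 0.92 and did not pass.

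Other transcription factors of the lens path split in direction. Of 19 genes 18 had a probe and 16 were tested, of which 5 were called lower and 1 higher. Over all 10123 genes 2.78% were called lower and 2.1% higher by their brightest tested probe. The median log2 fold change was -0.28, against 0.01 for all those genes. Zeb2, a zinc finger factor needed for the lens vesicle to separate, had a log2 level of 7.06 ± 0.47 in DCKO and 9.89 ± 0.03 in WT (SD, n = 3 each), 7.16-fold lower in DCKO (limma adjusted p = 0.00543). Maf, a crystallin activator in fibres, was 5.86-fold lower and Mycn, a growth regulator, 4-fold lower. Sox2, an SRY-box factor of the placode, and the CBP-binding cofactor Cited2 were also called lower, and are named here after their values were seen. A dimmer tested probe did not pass for Sox2 or for Cited2, and 2 of the 4 dimmer Zeb2 probes did not pass. Otx1, a homeobox factor of head ectoderm and brain, was higher in DCKO, at 7.86 ± 0.75 in DCKO and 5.20 ± 0.28 in WT (SD, n = 3 each; limma adjusted p = 0.0217). Only WT array 1 detected it among the WT arrays. Eya1 and Sox11, the brightest of the uncalled genes, had log2 fold changes of -0.31 and 0.25 (limma adjusted p = 0.463 and 0.575). The probes of Eya1 disagreed, since of the 3 dimmer ones 1 was called lower and 1 higher. A dimmer probe was also called lower for Meis1 and for Mafg, whose brightest probes did not pass, both named after their values were seen.

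Partners of Bcor in its Polycomb complex, PRC1.1, gave no call by limma. All 11 had a probe and 10 were tested, and 0 were called, with 0 at an unadjusted p under 0.05 and a median log2 fold change of 0.19. Over all 10123 genes 2.78% were called lower and 2.1% higher, so 0 calls among so few genes says little about the complex. Skp1, an adaptor of the complex, had a log2 fold change of 0.10 ± 0.21 (SE) and Rnf2, its ubiquitin ligase, of -0.15 ± 0.28 (SE). Summed levels were 5805 to 7056 in DCKO and 5486 to 6271 in WT, which overlap. Paralogs of the members were mostly at background. Of 7 with a probe 2 were tested and 0 were called, with 0 at an unadjusted p under 0.05. Hsf2 had a log2 fold change of 0.06 ± 0.35 (SE) and Bcorl1 of 0.86 ± 0.41 (SE, limma adjusted p = 0.298).

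**Figure D5:**
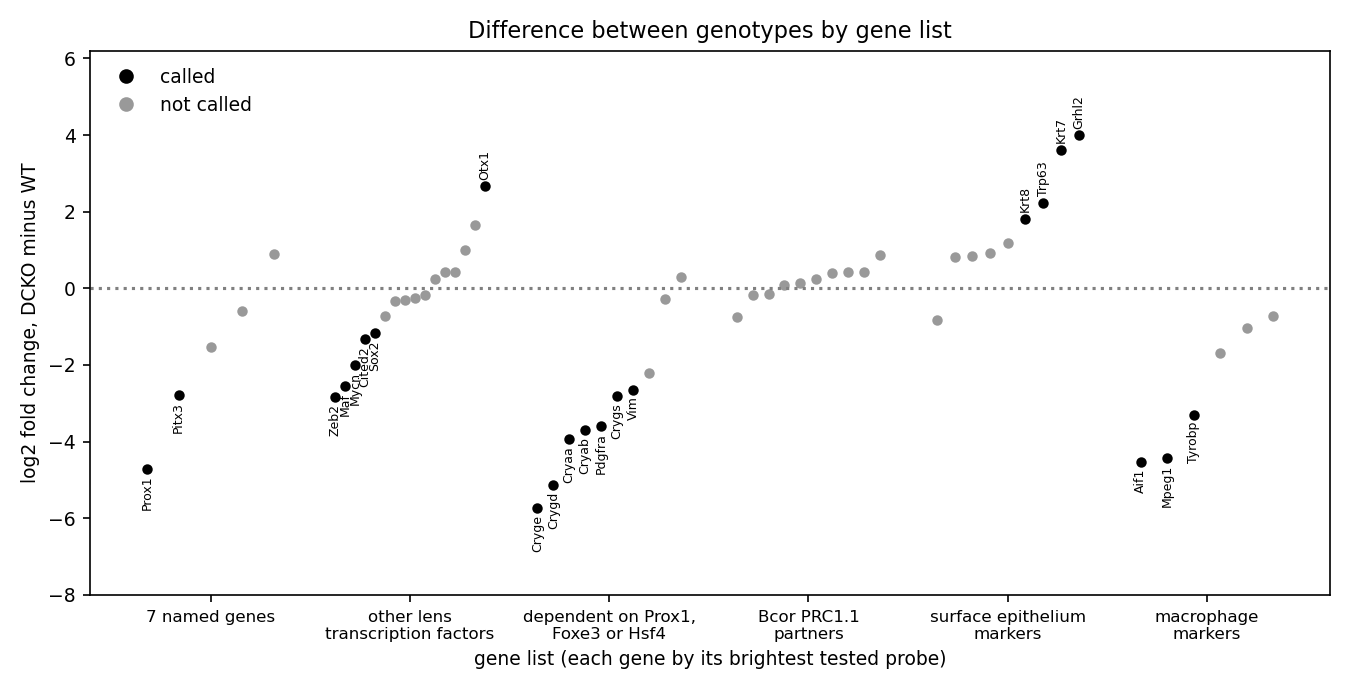
Log2 fold change (DCKO minus WT) of each gene by its brightest tested probe, in 6 gene lists. Black points with names were called and grey points were not: 7 of 10 genes dependent on Prox1, Foxe3 or Hsf4 were lower in DCKO, 0 of 10 PRC1.1 partners were called, and 4 of 9 surface epithelium markers were higher. Over all 10123 genes 2.78% were called lower and 2.1% higher.

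Surface epithelium markers show what the DCKO tissue did express. Grhl2, an epithelial transcription factor, was at 9.71 ± 0.11 in DCKO and 5.72 ± 0.84 in WT (SD, n = 3 each), and Krt7, a simple epithelial keratin, at 8.90 ± 0.67 in DCKO and 5.29 ± 0.35 in WT. Trp63, the master factor of stratified epithelium, was called higher as well, by at least 4.47-fold since only WT array 2 detected it among the WT arrays, and Krt8 was 3.48-fold higher. Cdh1 (E-cadherin) had a log2 fold change of -0.82 and Krt18 of 0.92, and neither passed (limma adjusted p = 0.126 and 0.103). The 4 called markers were higher where Prox1 and Pitx3 were lower, and their part in those results was not tested.

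Over the 6 arrays, the genes most like each member were found by the root mean square difference of log2 levels after each probe's own mean was subtracted, among 9834 genes. This is a description with no test, and all genes share the same 6 arrays and their normalization. For the brighter Prox1 probe they were Nid1, a basement membrane nidogen (0.310), Cyp4v3, a fatty acid hydroxylase (0.434), and Prokr1, a prokineticin receptor (0.454). Nid1 had a log2 fold change of -4.79, beside -4.71 for Prox1. For Pitx3 they were Nuak2, a kinase (0.315), Zbtb8b (0.389) and Myb, a proto-oncogene factor (0.395), with log2 fold changes of -2.79, -2.28 and -2.80. Members with smaller changes had closer matches. Ctps, Arl14ep and Cmtr1 were nearest to the brighter Mab21l1 probe (0.0794 to 0.0960), Trappc6b, Sec24c and Iqgap1 to Mab21l2 (0.0627 to 0.136), and Lrch1, Naa30 and Ccnd2 to the brightest Bcor probe (0.119 to 0.158). None of these 9 genes passed the limma test, with adjusted p of 0.0708 to 0.371.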

How the data were processed

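E10.5 ocular ectoderm of 3 DCKO and 3 WT samples was hybridised to the 6 arrays of 1 Illumina mouse bead chip, which leaves no chip batch to test. The authors deposited, from GenomeStudio, the mean bead intensity of each probe without normalization, a detection p-value against negative controls, and, for other values, the number of beads and the bead standard error. They also deposited a table of processed intensities on a linear scale, used as an alternative. The build used for probe design is not given in the sources used here. The article's test, after cubic spline normalization, was not run.

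From the deposited intensities, neqc of limma 3.58.1 in R 4.3.3 gave log2 values (normexp from detection p, offset 16, quantile normalization). The 19552 probes detected (p under 0.05) on 3 or more arrays were fitted by genotype alone (lmFit, eBayes), with Benjamini-Hochberg adjustment of the p-values. The fit was also run on simulated data of independent normal noise with added changes, without array effects or a background floor. That run checks the code and does not bear on the calls reported here. Of 45281 probes 34885 carry 1 symbol, 18 several and 10378 are unnamed here, and Entrez identifiers served to update old symbols from the RefSeq annotation of GRCm38.p6, from which overlapping genes were also read. A bound of "at least" sets undetected arrays of the dimmer genotype to the higher of that array's lowest detected level and the probe's own, and gives the fold between means. Every such bound leaves out the uncertainty of the means and holds for the background correction used here. "Brighter" and "dimmer" only tell probes of a gene apart.

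The members and gene lists were chosen with earlier results of these data known. Named genes are all 7 members, up to 4 called genes of a list with the largest change, up to 2 uncalled ones with the largest mean, the 3 genes most like each member, and Crebbp and Ep300. Markers undetected on all arrays are named outside this rule, after their values were seen. The settings tried were no filter or a detection p under 0.01, normexp without detection p (offset 50), uncorrected background, 75th percentile scaling, no normalization between arrays, the processed table with a floor of 16, eBayes with trend and robust options, a replicate block, averaging a gene's probes, and leaving out each array. The number of arrays limits the precision.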

Additional observations from a re-analysis of the deposited data

How the results depend on the processing

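Both calls and sizes moved with the settings. Without background correction the log2 fold changes were smaller (Prox1 -3.83 and -2.23, Pitx3 -1.20, Mab21l2 0.26, brightest Bcor probe -0.80), and with normexp on all probes that of Pitx3 was -1.88 and of the dimmer Prox1 probe -2.93, while with the processed values that of Mab21l2 was 1.61. With no normalization between arrays, which shifts the median of all tested probes to 0.12, 2 member probes and 3 other lens transcription factors were called lower, against 4 and 5 as reported. With the processed values of the authors, 3 of those factors were called lower. Pitx3 lost its call with no filter (adjusted p = 0.105), 75th percentile scaling (0.0523), no normalization (0.0645) and the processed table (0.0685), and the dimmer Mab21l1 probe with no normalization (0.0669). The cause was not tested. The replicate numbers were not taken to pair the samples. Deviations of same-numbered arrays correlated at only 0.0105 to 0.0332, although each array correlated best with its own number. These values do not settle whether the samples were paired. With the replicate number as a block, 156 probes were called lower and 49 higher, against 549 and 346, and 2 member probes and 2 other lens factors were called lower (Pitx3 0.0886, dimmer Mab21l1 probe 0.0954).

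With 1 array left out, 170 to 398 probes were called lower and 59 to 222 higher, 1 to 3 member probes lower and 2 to 4 other lens factors lower. In fits chosen after seeing the data, the filter and normalization were redone on the 5 arrays left. They gave 12 to 395 probes lower, 12 to 140 higher, 0 to 3 member probes lower, 0 to 4 other lens factors lower and 1 to 8 genes dependent on Prox1, Foxe3 or Hsf4 lower. The lowest counts came without a WT array, where 153 called probes left the test because only the WT arrays detected them. The Bcor probe of the other transcript record turned positive without DCKO replicate 2 (0.31, also when redone) and without WT replicate 3 (0.32, and 0.33 when redone), and ranged from -1.11 to 0.33 over these fits. Of 164 values of the 11 member probes under the planned settings 142 were kept and 19 lost a call. A further 2, of a tested probe, changed sign, and 1, for undetected Hsf4, moved to -0.22. A value of a tested probe was kept if its direction and its side of the threshold stayed. For the untested Foxe3 and Hsf4 probes it was kept if it moved by less than the larger SD of the genotypes, whatever its sign. Mab21l2 has no value at a detection p under 0.01, because it then fails the filter.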
